A study of Mus musculus with 4 samples.

Results

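Cycling Kupffer cells are liver macrophages that carry transcripts of the cell division machinery together with those of the resident macrophages of the liver. They were defined here as cell barcodes with at least 500 UMIs (unique molecular identifiers, each standing for 1 captured mRNA molecule), at least 200 genes and at most 20% of UMIs from mitochondrial genes, with a UMI of at least 3 of the 6 Kupffer genes Clec4f, Timd4, Vsig4, Cd5l, Marco and Folr2, with a UMI of at least 3 of the 7 cell cycle genes Top2a, Mki67, Cdk1, Birc5, Ccnb2, Rrm2 and Tk1, and with no UMI of the lymphocyte genes Cd79a, Cd3e and Cd3g. Members were thus chosen by measured values, and those 13 genes are given below as a description. There were 205 such barcodes, which is 3.12% of the 6567 barcodes that met the Kupffer criteria and 1.36% of the 15020 barcodes that passed the depth filters, of 15383 deposited. Barcodes with no UMI of the 7 cell cycle genes (5477 in all) are called non-cycling Kupffer cells below, and the 885 with 1 or 2 of the 7 belong to neither.

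The cells came from adult wild-type C57BL/6 mice, and hepatic leukocytes were enriched with magnetic beads against the pan-leukocyte surface protein CD45 before 10x Genomics 3′ single-cell RNA sequencing. That is what the sample labels describe, whereas the series' design text speaks of flow sorting and of nuclei. Which of them holds bears on the mitochondrial share and on intronic counts, and the labels do not settle it. Exercise mice (2 libraries) ran on a treadmill at 12.5 m/min for 60 min a day on 5 days a week over 4 weeks. Sedentary mice (2 libraries) were kept on a treadmill that did not move, on the same schedule. Serum alanine aminotransferase was 26 and 59 U/L in the exercise replicates and 33 and 56 U/L in the sedentary replicates. The labels do not say whether a library is 1 animal, so p-values measure only the spread between these libraries.

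Kupffer cells are seeded before birth and maintain themselves in the adult liver largely by division in place, which depends on colony-stimulating factor signalling. A dividing cell first loads helicases onto replication origins and copies its DNA, using transcripts that E2F factors drive, and then condenses and separates its chromosomes, using transcripts that the DREAM and MuvB complexes and the factors B-Myb and FoxM1 control through CHR and CCAAT promoter elements. Among the rule genes, Rrm2 (a subunit of ribonucleotide reductase) and Tk1 (thymidine kinase) supply nucleotides, Top2a untangles DNA, Cdk1 and Ccnb2 form a mitotic cyclin-kinase pair, Birc5 encodes survivin of the chromosomal passenger complex, and Mki67 encodes a coat protein of mitotic chromosomes. Among the Kupffer genes, Clec4f is a lectin, Timd4 and Marco bind dying cells and particles, Vsig4 is a complement receptor, Cd5l is a secreted scavenger receptor protein and Folr2 is a folate receptor.

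The 205 members came from every library, with 38 and 87 in exercise replicates 1 and 2 and 32 and 48 in sedentary replicates 1 and 2. No barcode sequence of a member recurred in another library, although any pair of libraries shared 11 to 31 barcode sequences. Members held a median of 5406 and 4056 UMIs in the exercise libraries and 2995.5 and 3839.5 in the sedentary ones, against 2571.5 and 2704 in exercise and 2012 and 2438 in sedentary non-cycling Kupffer cells. Members were therefore the deeper cells in every library, and the rule asks for detected genes, which deeper cells meet more easily. Summed over members, a library gave 278278 and 472419 UMIs after exercise and 114947 and 237950 UMIs in the sedentary group, so that sedentary replicate 1 is the thinnest. A doublet score marked 5 of the 205 members.

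The level of the 6 Kupffer genes split the members into 181 and 24. The rule used these genes, so their levels are a description and do not test the label. In the 181, the 6 genes gave 2.83 to 30.2 of every 1000 UMIs, with a median of 11.7, against medians of 14.7 and 14.2 in exercise and 13.6 and 13.8 in sedentary non-cycling Kupffer cells. The other 24 members (8 and 10 in the exercise libraries, 1 and 5 in the sedentary ones) had 0.190 to 1.41 Kupffer-gene UMIs per 1000, with a median of 0.438. B cell barcodes (at least 2 UMIs each of Cd79a and Cd79b), which should lack these genes, had medians of 0.367 and 0.468 per 1000 in the exercise libraries and 0.140 and 0.287 in the sedentary ones, and T cell barcodes (at least 3 UMIs of Cd3d, Cd3e and Cd3g together) lay between 0.311 and 0.391 in the 4 libraries. The 24 thus lay at the level of the lymphocyte barcodes. No member lay between 1.41 and 2.83 per 1000. A UMI of at least 3 Kupffer genes was also found in 5.54% and 7.19% of exercise and 4.41% and 7.05% of sedentary B cell barcodes (median depth 1842 and 1910.5, and 1542 and 1670 UMIs), and in 10.4% and 11.0% of exercise and 5.96% and 8.80% of sedentary T cell barcodes (3128 and 3111.5, and 2547 and 2688 UMIs).

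The 24 Kupffer-poor members were larger and carried a different set of transcripts. Their median depth was 11874 UMIs, against 3711 in the 181 Kupffer-rich members, and they held 28.2% of all UMIs of the members (44.1% and 27.2% in the exercise libraries, 6.08% and 22.5% in the sedentary ones). Genes of MHC class II, which present antigen to helper T cells, gave 29.7 to 99.9 of every 1000 UMIs in them, against 0 to 60.6 in the Kupffer-rich members, whose median was 5.27. Of 214 UMIs of 6 conventional dendritic cell markers in all members, 200 lay in the 24, and 20 of the 24 had such a UMI, against 13 of the 181. Timd4 had a UMI in 1 of the 24 and in 128 of the 181. The label was checked with the complement genes C1qa, C1qb and C1qc, which Kupffer cells express and the rule did not use. They gave fewer than 2 of every 1000 UMIs in 18 of the 24 but more than 9 in the other 6, and 2.11 to 35.0 of every 1000 in the 181, with a median of 9.54. The label was thus not borne out for the 24 as a group, and they were given no cell type. The 181 are not free of doubt either, since a sedentary replicate 1 barcode at 2.83 Kupffer-gene UMIs per 1000 had no UMI of Clec4f, Timd4 or Vsig4 and 60.6 MHC class II UMIs per 1000, and an exercise replicate 2 barcode had 54.1 MHC class II and 2.11 C1q UMIs per 1000. Many results that touch the 24 are given with all 205 members first and then with the 181 Kupffer-rich members. Where only 1 is given, it is with all members. For the Kupffer-rich values, non-cycling cells were held to the same limit of 2 Kupffer-gene UMIs per 1000. This restriction was chosen after the values had been seen.

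**Figure D1:**
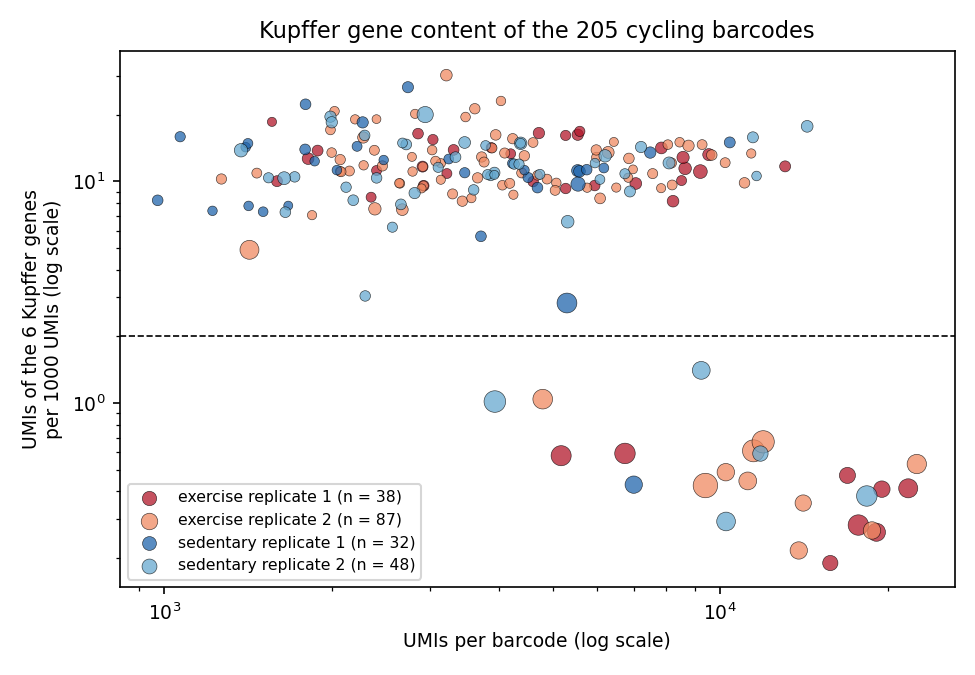
Kupffer-gene UMIs per 1000 UMIs (log scale, vertical axis) against UMIs per barcode (log scale, horizontal axis) for each of the 205 members, with a colour for each library; the area of a point follows its MHC class II UMIs per 1000, and the dashed line marks 2 Kupffer-gene UMIs per 1000. The 24 points under the line lie at 0.190 to 1.41 and are mostly large and deep, 18 of them in the exercise libraries, and the 181 above it begin at 2.83.

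Within the members, the cell cycle genes of the rule were detected to different degrees. Top2a had a UMI in 171 of the 205 (83.4%), Birc5 in 156, Cdk1 in 149, Rrm2 in 137, Tk1 in 132, Mki67 in 92 and Ccnb2 in 68. Top2a was at 575 and 466 CPM (UMIs of the gene per 1000000 UMIs of the sum) after exercise and at 400.2 and 509 CPM in the sedentary group, and Cdk1 was at 230 and 273 CPM after exercise and 426 and 286 CPM in the sedentary group. Ccnb2 was at 79.1 and 116 CPM in the exercise libraries and 235 and 122 CPM in the sedentary ones, highest in sedentary replicate 1, and Rrm2 was at 438 and 343 CPM in the exercise libraries and 261 and 382 CPM in the sedentary ones, lowest in that same library. By the rule all 7 genes were at 0 in non-cycling Kupffer cells. Members with 3, 4, 5, 6 and 7 of the 7 genes numbered 61, 57, 42, 31 and 14.

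Stmn1, which encodes the microtubule-destabilizing protein stathmin and is no part of the rule, had a UMI in 193 of the 205 members. It was at 1290.1 and 1122 CPM in cycling cells after exercise and at 1105 and 1198 CPM in the sedentary group, against 10.3 and 23.6 CPM in exercise and 12.8 and 15.4 CPM in sedentary non-cycling Kupffer cells. All 4 cycling values were thus far above all 4 non-cycling values. Its level climbed with the number of cell cycle genes detected. With 0, 1, 2, 3 and at least 4 of the 7 genes, Stmn1 was at 10.3, 36.6, 313, 641 and 1381 CPM in exercise replicate 1 and at 23.6, 75.2, 382, 903 and 1198 CPM in exercise replicate 2. In sedentary replicates 1 and 2 the same steps gave 12.8, 64.6, 445, 548 and 1264 CPM, and 15.4, 129, 409, 865 and 1302 CPM. Barcodes just outside the rule, with 2 genes, thus already carried Stmn1 well above the level of those with none. Across the threshold the median of Kupffer-gene UMIs per 1000 was 14.2 and 13.3 at 2 genes and 11.0 and 12.2 at 3 genes in the exercise libraries, and 13.1 and 14.0 at 2 genes and 9.10 and 10.8 at 3 genes in the sedentary ones.

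All genes, those of the rule included, were next compared between cycling and non-cycling cells of the same library, as a difference of log2(CPM + 10). Because the cells were split by their cell cycle transcripts, this is a description without a test. Of 6016 genes with at least 20 CPM in either state, 267 (4.44%) were at least 2-fold higher in cycling cells in all 4 libraries and 13 (0.216%) were at least 2-fold lower. The 7 cell cycle genes of the rule are among the 267, as the rule makes them. With the 181 Kupffer-rich members the counts were 265 of 5950 genes (4.45%) and 2 (0.0336%). By any size, 1532 genes (25.5%) were higher and 1162 (19.3%) lower in cycling cells of all 4 libraries, and 1402 (23.6%) and 888 (14.9%) with the Kupffer-rich members. Over all genes the median difference was 0.03, and 0.04 with the Kupffer-rich members.

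Genes outside the rule were ranked by their smallest difference among the 4 libraries. Among the first were Stmn1 (mean log2 difference 5.56) and 2810417H13Rik (5.79), which encodes a PCNA-associated factor. The E2 enzyme of the anaphase-promoting complex, Ube2c, was at 201 and 411 CPM in cycling cells after exercise and 478 and 252 CPM in the sedentary group, against 1.63 and 3.90 CPM in exercise and 3.84 and 4.80 CPM in sedentary non-cycling cells (log2 difference 4.60). Cyclin A2 (Ccna2), which acts in S phase and at mitotic entry, differed by 4.18, and the chromatin protein Hmgb2 by 3.90 (SD 0.07, n = 4). Hmgb2 was at 1660.2 and 1727 CPM in exercise and 1548 and 1643 CPM in sedentary cycling cells, against 104 and 101 CPM and 101 and 98.9 CPM in the non-cycling cells of those groups. The spindle protein Nusap1 differed by 3.67, the mitotic entry factor Cdca3 by 3.83, the passenger complex subunit Cdca8 (borealin) by 3.40, the hemimethylated DNA reader Uhrf1 by 3.45, the large ribonucleotide reductase subunit Rrm1 by 3.44, and the noncoding Lockd, which lies next to Cdkn1b, by 3.52. The histone gene Hist1h2ap averaged 4.36, but it was at 133 and 787 CPM in the exercise replicates and 130.5 and 803 CPM in the sedentary ones, so that it followed the replicate number and not the group.

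Promoters of genes that stood higher in cycling cells are shown because the transcripts for DNA copying and for mitosis are known to use different promoter elements. Each sequence is from RefSeq on GRCm38.p6, read 5′ to 3′ on the strand of the gene, with 250 bases before the annotated start and 50 after it. Capitals mark matches, on either strand, to CCAAT, to the CHR core TTTGAA, and to the E2F-type motifs TTCCCGC and TTTGGCGC. Cdk1 (chr10:69352863-69353162, minus strand) and Ccnb2 (chr9:70421505-70421804, minus strand) are rule genes, Ube2c (chr2:164769679-164769978, plus strand) is a mitotic gene outside the rule, and Mcm5 (chr8:75109259-75109558, plus strand) and Mcm6 (chr1:128359656-128359955, minus strand) encode subunits of the replicative helicase; Mcm6 was chosen after its sequence had been seen.
Cdk1: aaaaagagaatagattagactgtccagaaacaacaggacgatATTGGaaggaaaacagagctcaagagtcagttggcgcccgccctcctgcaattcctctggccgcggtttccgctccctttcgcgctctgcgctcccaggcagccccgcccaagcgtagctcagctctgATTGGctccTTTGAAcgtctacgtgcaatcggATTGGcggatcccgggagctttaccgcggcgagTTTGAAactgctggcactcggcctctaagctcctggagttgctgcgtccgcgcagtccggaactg
Ccnb2: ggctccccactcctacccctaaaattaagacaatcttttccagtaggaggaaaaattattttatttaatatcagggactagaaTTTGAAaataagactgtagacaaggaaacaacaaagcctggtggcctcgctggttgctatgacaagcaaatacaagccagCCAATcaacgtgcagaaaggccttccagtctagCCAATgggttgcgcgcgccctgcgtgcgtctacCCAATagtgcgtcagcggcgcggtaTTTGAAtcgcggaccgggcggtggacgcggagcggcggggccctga
Ube2c: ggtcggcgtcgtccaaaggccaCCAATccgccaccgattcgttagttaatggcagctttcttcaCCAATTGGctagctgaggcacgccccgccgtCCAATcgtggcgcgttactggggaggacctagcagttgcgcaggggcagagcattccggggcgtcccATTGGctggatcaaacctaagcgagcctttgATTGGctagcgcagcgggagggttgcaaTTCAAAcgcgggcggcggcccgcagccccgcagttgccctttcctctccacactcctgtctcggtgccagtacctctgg
Mcm5: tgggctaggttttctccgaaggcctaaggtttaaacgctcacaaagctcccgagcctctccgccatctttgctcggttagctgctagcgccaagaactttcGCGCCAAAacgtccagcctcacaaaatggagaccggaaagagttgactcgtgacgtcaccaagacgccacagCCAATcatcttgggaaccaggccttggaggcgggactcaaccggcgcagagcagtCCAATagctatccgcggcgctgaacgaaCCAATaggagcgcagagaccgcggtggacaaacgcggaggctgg
Mcm6: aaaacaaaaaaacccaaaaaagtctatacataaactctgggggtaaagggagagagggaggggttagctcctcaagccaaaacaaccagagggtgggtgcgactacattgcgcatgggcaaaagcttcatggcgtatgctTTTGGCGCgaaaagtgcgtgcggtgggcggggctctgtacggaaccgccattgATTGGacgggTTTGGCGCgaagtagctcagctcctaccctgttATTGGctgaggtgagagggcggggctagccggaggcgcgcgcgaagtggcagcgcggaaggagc

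The first 3 windows hold both CCAAT and TTTGAA matches and the Mcm windows hold CCAAT and TTTGGCGC matches. In Cdk1 the TTTGAA matches begin 71 and 15 bases before the start, with CCAAT matches at 208, 80 and 48 bases before it. In Ccnb2 the CCAAT matches begin 87, 54 and 21 bases before the start, and TTTGAA begins 167 bases before it and again 5 bases after it. In Ube2c a CCAAT match at 186 and its reverse at 183 bases before the start overlap, and the only TTTGAA match, on the other strand, begins 29 bases before the start. In Mcm6 the TTTGGCGC matches begin 110 and 47 bases before the start, and in Mcm5 the match lies on the other strand, 149 bases before it. A TTTGAA match was found in 23 of 33 promoter windows of kinetochore and spindle genes (69.7%, 29 of 33 genes matched) and in 1 of 11 of replication licensing genes (9.09%, 10 of 12 genes matched), against 17.9% of all 32851 windows. An E2F-type match was found in 3 of the 33 windows of kinetochore and spindle genes (9.09%) and in 7 of the 11 of licensing genes (63.6%), against 5.06% of all windows. A CCAAT match was present in 69.7% of kinetochore and spindle, 81.8% of licensing and 37.4% of all windows. None of the 7 rule genes had a match to TTCCCGC or TTTGGCGC, and 4 had TTTGAA. Other forms of the E2F motif were not searched. The Cdk1 window, for one, holds TTGGCGC, which lacks the first T of TTTGGCGC. The count thus does not show that E2F sites are absent from the rule genes. A match describes these letters in these windows and shows no binding.

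The machinery of DNA copying was higher in cycling cells as a whole. All 11 measured genes of replication licensing, which load the helicase onto origins, were at least 2-fold higher in every library (median log2 difference 2.20). Mcm5 averaged 195 ± 27.8 CPM in cycling and 10.4 ± 3.99 CPM in non-cycling cells (log2 difference 3.34), and the licensing inhibitor geminin (Gmnn) 234 ± 24.3 and 48.4 ± 2.05 CPM (2.06). Of 19 genes of the replication fork 15 were 2-fold higher (median 1.85), among them the sliding clamp Pcna (552 ± 103 CPM in cycling and 92.3 ± 1.56 CPM in non-cycling cells, 2.44), the DNA ligase Lig1 (2.96), the flap endonuclease Fen1 (2.50) and the clamp loader subunit Rfc2 (1.85). Of 8 genes of nucleotide synthesis 6 were 2-fold higher (median 2.15), with the dUTPase Dut at 2.87. All 14 genes of chromatin assembly in S phase (median 2.56), with the histone variant H2afz at 2.38, and all 8 of the DNA damage response (median 2.24) were 2-fold higher too. Restricting to the Kupffer-rich members left these counts as they were, except 13 of 18 fork genes, with list medians of 1.73 to 2.54.

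The mitotic genes stood out as evenly. Of 33 kinetochore and spindle genes 32 were 2-fold higher in every library (median 2.73), of 19 cyclins and mitotic kinases 17 (median 2.58), and of 7 condensin genes all 7 (median 2.67). The centromeric histone Cenpa averaged 229 ± 65.7 CPM in cycling and 15.9 ± 2.88 CPM in non-cycling cells (3.16), the midzone kinesin Kif23 169.9 ± 22.4 and 17.5 ± 3.80 CPM (2.71), and the condensin subunit Smc2 179 ± 23.0 and 11.7 ± 1.27 CPM (3.11). Of 9 tubulin and stathmin genes 5 were 2-fold higher. Beta-tubulin Tubb5 averaged 2169 ± 66.7 CPM in cycling and 249 ± 10.6 CPM in non-cycling cells (3.07), and alpha-tubulin Tuba1b differed by 2.69. With the Kupffer-rich members 33 of 33 kinetochore and spindle genes, 18 of 19 cyclins and kinases and 6 of 7 condensin genes were 2-fold higher.

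Genes that act before the commitment to copy DNA were mixed. Of 15 measured genes of G1 and S entry 7 were 2-fold higher (median 1.41). Cdk4, the kinase partner of D-type cyclins, differed by 1.41, Cdk2 by 1.61 and cyclin D3 (Ccnd3) by 1.08. Cyclin D1 (Ccnd1) was at 133 and 119 CPM in exercise and 78.3 and 189 CPM in sedentary cycling cells, against 104 and 102 CPM in exercise and 146 and 125 CPM in sedentary non-cycling cells, and these values overlapped (log2 difference 0.07). Of 13 inhibitors and brakes of the cycle 5 were higher in every library, 2 of them at least 2-fold, and 5 were lower in every library (median −0.11, and 0.06 with the Kupffer-rich members). Among the brakes, the antiproliferative factor Btg1 differed by −0.75 and the quiescence factor Klf2 by −0.95, with 287 and 256 CPM in exercise and 348 and 311 CPM in sedentary cycling cells, against 706 and 605 CPM in exercise and 529 and 528 CPM in sedentary non-cycling cells. Among the Kupffer-rich members Btg1 was at −0.74 and Klf2 at −0.84.

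**Figure D2:**
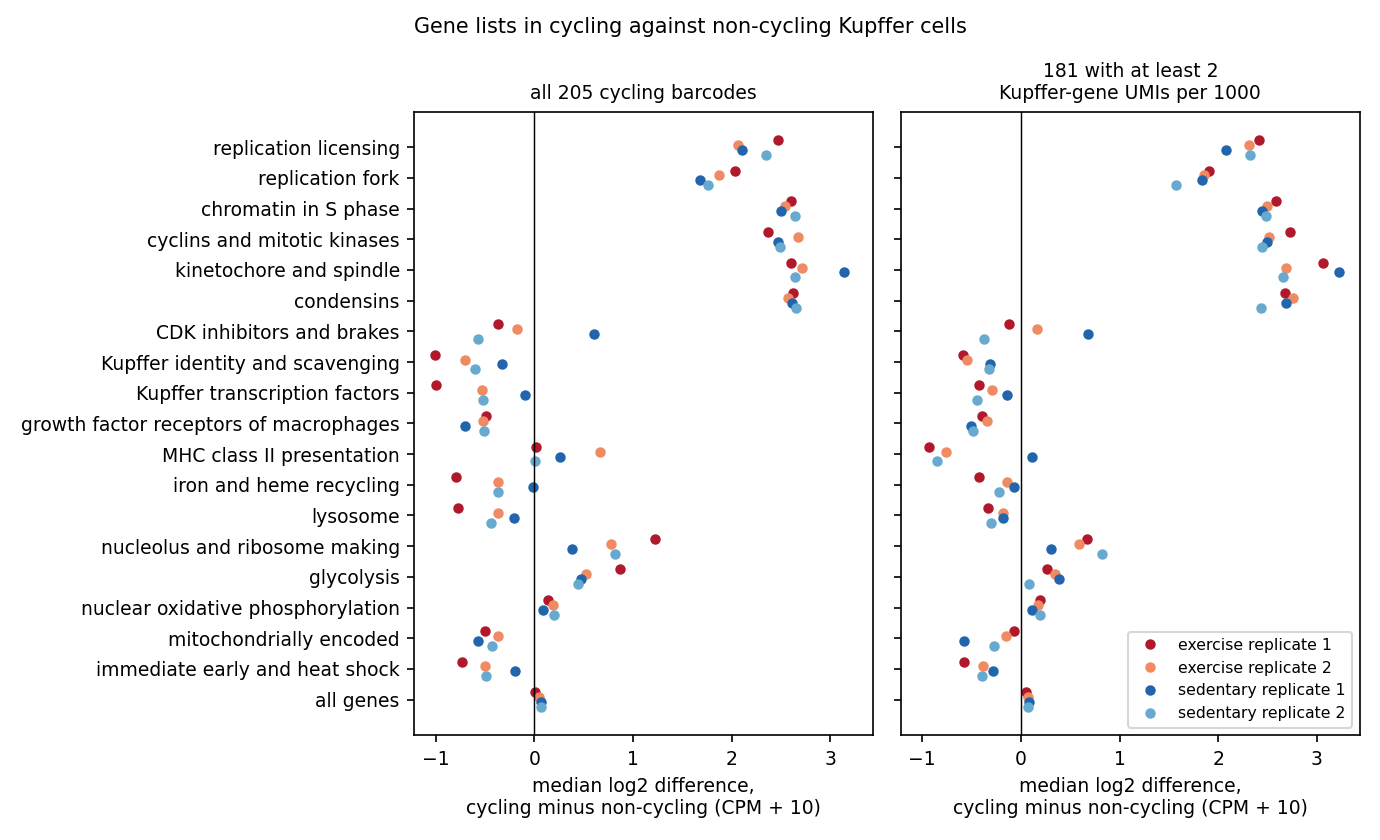
Median log2 difference between cycling and non-cycling Kupffer cells of the same library for each gene list; each dot is 1 library, with all 205 members in one panel and the 181 Kupffer-rich members in the other. The lists of replication licensing, the replication fork, cyclins and mitotic kinases, and kinetochore and spindle lie between 1.68 and 3.14 with all members, the Kupffer identity list lies below 0 in every library in both panels, and the MHC class II list is above 0 with all members but below 0 in 3 of 4 libraries with the Kupffer-rich members.

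The Kupffer programme itself was retained at a lower share of UMIs. In every library members had the higher median depth, so a lower CPM need not mean fewer transcripts per cell. UMIs per cell were not compared. Clec4f was at 1495 and 2349.6 CPM in exercise and 2706 and 2429 CPM in sedentary cycling cells, against 3512 and 3727 CPM in exercise and 3354 and 3669 CPM in sedentary non-cycling cells. Cd5l was at 2749 and 3347 CPM in exercise and 4149.7 and 3417 CPM in sedentary cycling cells, against 5389 and 5116 CPM in exercise and 5149 and 4689.8 CPM in sedentary non-cycling cells. In each library both genes were lower in cycling cells, by −0.70 and −0.59 on the log2 scale with all members and by −0.37 and −0.26 with the Kupffer-rich members. Timd4 (−0.73, −0.39 with the Kupffer-rich members), Vsig4 (−0.76, −0.43) and Folr2 (−0.62, −0.31) went the same way. Marco was the exception among the rule genes. It was at 654 and 785 CPM in exercise and 766 and 899 CPM in sedentary cycling cells, against 606 and 491 CPM in exercise and 472 and 593 CPM in sedentary non-cycling cells, so that it was higher in cycling cells of every library (0.51, 0.85 with the Kupffer-rich members). Since a UMI of any 3 of the 6 genes was asked of both states, these levels describe the cells that the rule let in.

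Of 17 genes of Kupffer identity and scavenging, 15 were lower in cycling cells of all 4 libraries (median −0.76), and 15 were so with the Kupffer-rich members (median −0.47). The complement gene C1qa was at −0.77 (−0.51 with the Kupffer-rich members). Of 11 transcription factors of Kupffer cells 7 were lower in all 4 libraries (median −0.63, and −0.34 for the Kupffer-rich members). The transcription factor Maf differed by −0.47 (−0.14 with the Kupffer-rich members). Csf1r, the receptor through which colony-stimulating factors keep Kupffer cells alive, was at 898 and 1003 CPM in exercise and 1148 and 1105 CPM in sedentary cycling cells, against 2053 and 1874 CPM in exercise and 1873 and 1885 CPM in sedentary non-cycling cells. Csf1r was lower in cycling cells in every library (−0.89, −0.61 with the Kupffer-rich members), as was the TGF-beta receptor Tgfbr2 (−0.88, −0.60), whereas the receptor subunit Csf2ra was at 0.03. Of 11 such receptors 7 were lower in all 4 libraries (median −0.57), and 5 of 10 with the Kupffer-rich members (median −0.44).

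Ranked by the smallest decrease among the 4 libraries, the genes lower in cycling cells were not macrophage regulators alone. The water channel Aqp1 was at 3.59 and 8.47 CPM in exercise and 17.4 and 4.20 CPM in sedentary cycling cells, against 62.2 and 67.3 CPM in exercise and 62.3 and 60.8 CPM in sedentary non-cycling cells (−2.05, −1.87 with the Kupffer-rich members). Aqp1 and the endocytic recycling protein Ehd3 (−1.64) are also transcripts of sinusoidal endothelial cells, and 6 markers of those cells summed to 162 and 148 CPM in exercise and 226 and 181 CPM in sedentary cycling cells, against 401 and 394 CPM in exercise and 353 and 402 CPM in sedentary non-cycling cells. The part of that difference in the Aqp1 and Ehd3 values was not tested. The linker histone gene Hist1h1c (−1.43), the activation marker Cd83 (−1.40), the xenobiotic hydrolase Ephx1 (−1.39), the selenium carrier Sepp1 (−1.34), the lectin Clec4n (−1.22), the interleukin-18 antagonist Il18bp (−1.17), the hexokinase Hk3 (−1.13) and the vesicle protein Rabac1 (−0.98) were also lower. The B cell gene Ly6d (−1.73) and the monocyte gene Ly6c2 (−1.65) moved to −0.56 and −0.56 with the Kupffer-rich members. Ehd3 and the genes from Hist1h1c to Rabac1 are given with all members only. At least 2-fold lower in all 4 libraries were 13 genes with all members, but 2 with the Kupffer-rich members.

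Antigen presentation changed sign with the 24 Kupffer-poor members. Over 7 MHC class II genes the median log2 difference was 0.24 with all members and −0.62 with the Kupffer-rich members. The invariant chain gene Cd74 was at 12452 and 8909.5 CPM in exercise and 5629 and 8523 CPM in sedentary cycling cells, against 10062 and 5609 CPM in exercise and 4866 and 8263 CPM in sedentary non-cycling cells. Once the Kupffer-poor members were left out, Cd74 was at 3869.6 and 2052 CPM in exercise and 4594 and 3975 CPM in sedentary cycling cells, against 8941 and 4460.3 CPM in exercise and 4372 and 7252 CPM in sedentary non-cycling cells. The monocyte receptor gene Ccr2 likewise stood at 1.60 with all members and at 0.55 with the Kupffer-rich members.

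Metabolic and housekeeping lists differed in direction. Of 12 genes of the nucleolus and ribosome making 9 were higher in cycling cells of all 4 libraries (median 0.83, and 0.52 with the Kupffer-rich members), led by the nuclear transport GTPase Ran (688 ± 68.7 CPM in cycling and 177 ± 12.8 CPM in non-cycling cells, 1.89). Of 11 glycolysis genes 7 were higher (median 0.58, and 0.23 with the Kupffer-rich members), with Gapdh at 0.95 (0.58). The 19 nuclear genes of oxidative phosphorylation had a median of 0.10, whereas 11 of 12 mitochondrially encoded genes were lower in all 4 libraries (median −0.46, and 8 of 12 with a median of −0.24 for the Kupffer-rich members). Mitochondrial genes gave 4.58% and 4.62% of UMIs in exercise and 5.61% and 5.02% in sedentary cycling cells, against 6.37% and 5.96% in exercise and 8.22% and 6.87% in sedentary non-cycling cells. Of 19 immediate early and heat shock genes 13 were lower in all 4 libraries (median −0.46), of 16 lysosomal genes 10 (median −0.36), of 11 genes of iron and heme recycling 5 (median −0.40), of 12 interferon-stimulated genes 5 (median −0.50) and of 11 NF-kB targets and cytokines 6 (median −0.49). With the Kupffer-rich members these lists had 13, 10, 5, 4 and 7 such genes, in the same order. Their medians were then −0.40, −0.23, −0.24, −0.28 and −0.48. There, 2 iron and heme genes and 1 interferon-stimulated gene were higher in all 4 libraries. Over all genes 19.3% were lower in all 4 libraries, and 14.9% with the Kupffer-rich members.

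Members were then placed within the cycle by UMIs of 2 gene groups that the rule did not use, DNA synthesis (12 licensing and 21 fork genes) and mitosis (21 cyclin and kinase and 33 kinetochore and spindle genes). Since the groups differ in size, which of them is larger in a cell is a relative reading. Mitosis UMIs exceeded synthesis UMIs in 137 of the 205 members (23 and 57 in the exercise libraries, 25 and 32 in the sedentary ones), synthesis UMIs exceeded mitosis UMIs in 60 (13 and 27, 5 and 15), and the counts were equal in 8. Among the Kupffer-rich members the numbers were 122, 51 and 8. Cells of both kinds thus occurred in every library. Of the rule genes, 129 members had a UMI of Rrm2 or Tk1 but none of Ccnb2, 19 had Ccnb2 but neither of the others, and 49 had both kinds. In the Kupffer-rich members, Kupffer-gene UMIs per 1000 had medians of 13.5 and 12.7 in exercise and 8.22 and 14.3 in sedentary synthesis-leaning cells, and of 11.6 and 11.3 in exercise and 11.3 and 10.7 in sedentary mitosis-leaning cells. Only 5 synthesis-leaning cells lay behind the value of 8.22 in sedentary replicate 1.

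**Figure D3:**
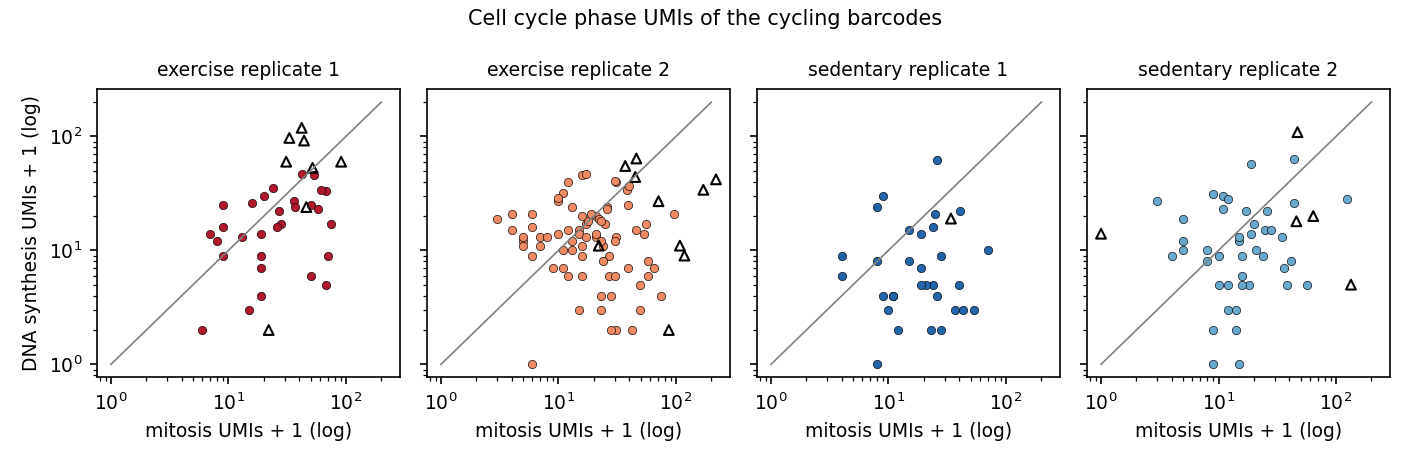
DNA synthesis UMIs + 1 against mitosis UMIs + 1 (both axes on a log scale) for each member, one panel per library; filled circles are the 181 Kupffer-rich members, open triangles the 24 Kupffer-poor ones, and the grey line marks equality. Most points lie below the line (137 of 205), and each library has points on both sides of it.

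The first question of the exercise comparison is whether more Kupffer cells were cycling after exercise. Cycling cells made up 2.79% of Kupffer barcodes (38 of 1361; exact binomial 95% interval 1.98 to 3.81) and 4.20% (87 of 2070; 3.38 to 5.16) in the exercise libraries. In the sedentary libraries they made up 2.10% (32 of 1524; 1.44 to 2.95) and 2.98% (48 of 1612; 2.20 to 3.93). The mean was 3.50 ± 0.998% after exercise and 2.54 ± 0.621% in the sedentary libraries (SD, n = 2 each), a difference of 0.959 percentage points (exact two-sided permutation test, p = 0.67, where 2 against 2 libraries cannot give less than 0.33). The groups overlapped, since exercise replicate 1 lay below sedentary replicate 2. The intervals cover counting error only.

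The share was also counted without the Kupffer-poor members and at 1 fixed depth. In the Kupffer-rich members the shares were 2.31% and 3.90% after exercise and 2.07% and 2.77% in the sedentary libraries, a difference of 0.683 points (exact permutation p = 0.67). After every barcode had been thinned to 1500 UMIs, which left out 229 and 266 exercise and 447 and 316 sedentary Kupffer barcodes, the shares were 2.24% (25 of 1118) and 1.63% (29 of 1783) after exercise and 1.27% (14 of 1100) and 1.30% (17 of 1309) in the sedentary libraries. Both exercise values then lay above both sedentary values (difference 0.646 points, exact permutation p = 0.33, the smallest possible), and exercise replicate 1 was then the higher of the exercise libraries. When at least 4 of the 7 cell cycle genes were asked for, the shares were 2.35% and 2.75% after exercise and 1.44% and 2.05% in the sedentary libraries. Leaving out exercise replicate 2 moved the difference to 0.253 points and leaving out exercise replicate 1 to 1.66 points. As a share of all kept barcodes, cycling Kupffer cells were 1.30% and 2.06% after exercise and 0.795% and 1.24% in the sedentary libraries, and Kupffer barcodes as a whole were 47.8 ± 1.69% after exercise and 39.8 ± 2.79% in the sedentary libraries (SD, n = 2 each; exact permutation p = 0.33 for both). Of all kept barcodes with at least 3 of the 7 cell cycle genes, 63.3% and 65.4% in the exercise libraries and 34.4% and 58.5% in the sedentary ones were cycling Kupffer cells.

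**Figure D4:**
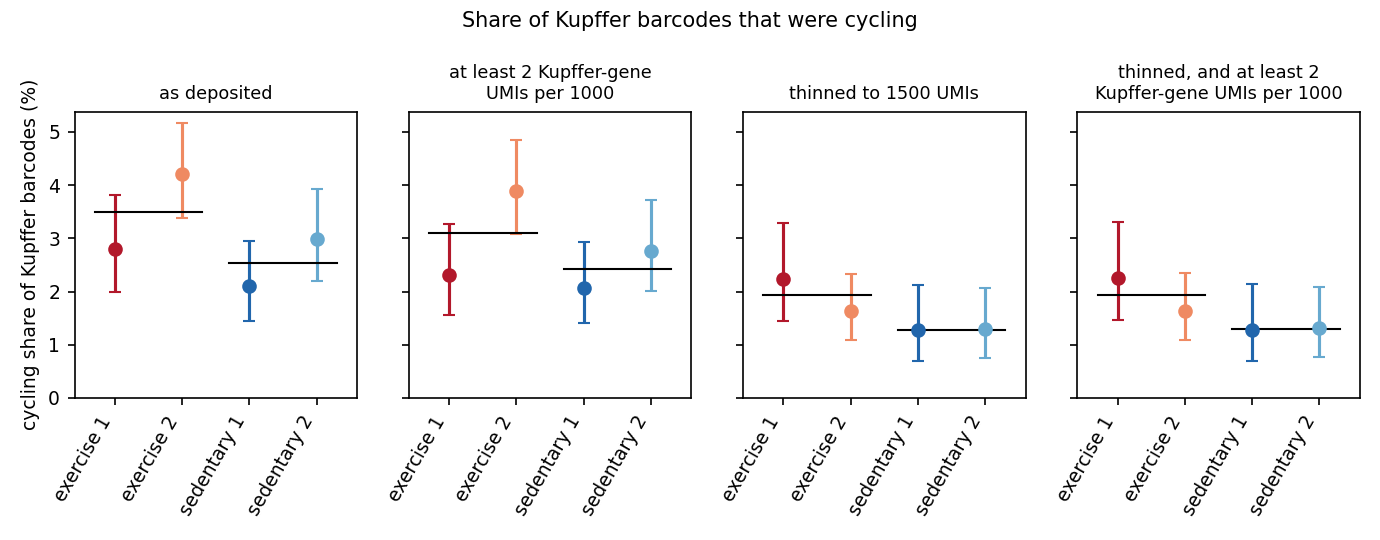
Cycling Kupffer cells as a percentage of Kupffer barcodes, one point per library with its exact 95% binomial interval and a black bar at each group mean, exercise left of sedentary; the panels show all members, the Kupffer-rich members, barcodes thinned to 1500 UMIs, and thinned Kupffer-rich barcodes. With all members the points are 2.79% and 4.20% after exercise and 2.10% and 2.98% in the sedentary libraries, and after thinning 2.24% and 1.63% after exercise and 1.27% and 1.30% in the sedentary libraries.

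The position within the cycle was compared as the share of synthesis UMIs among the synthesis and mitosis UMIs of all members of a library. It was 44.7% (1039 synthesis and 1284 mitosis UMIs) and 34.2% (1386 and 2666) after exercise, and 30.5% (303 and 692) and 39.3% (742 and 1144) in the sedentary libraries. The means were 39.5 ± 7.44% in exercise and 34.9 ± 6.29% in sedentary libraries (SD, n = 2 each), which differ by less than the spread between libraries of a group (exact permutation p = 0.67). Without the Kupffer-poor members the values were 36.7% and 38.5% after exercise and 30.2% and 40.4% in the sedentary libraries (p = 1, exact permutation). Without exercise replicate 1 the difference was −0.69 points, so its direction rests on that library. Without barcodes that held markers of other leukocytes or of sinusoidal endothelium the shares were 48.1% and 39.8% after exercise and 28.5% and 32.1% in the sedentary libraries, a difference of 13.6 points. In barcodes with no hepatocyte UMI they were 53.7% and 34.2% after exercise and 16.7% and 24.4% in the sedentary libraries, a difference of 23.4 points, where the 16.7% rests on 24 phase UMIs of 1 cell. In both settings the groups did not overlap (exact permutation p = 0.33 each, the smallest possible). Synthesis-leaning cells were 34.2% and 31.0% of members after exercise and 15.6% and 31.3% in the sedentary libraries, with sedentary replicate 1 apart from the other 3.

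Gene expression was compared between exercise and sedentary libraries with edgeR's quasi-likelihood test on UMIs summed over the members of each library, with Benjamini-Hochberg adjustment over all genes tested. Of 3759 genes 3 (0.0798%) passed an adjusted p of 0.05 in cycling Kupffer cells: Cd209a was higher, and Alb and Mup7 were lower after exercise. In non-cycling Kupffer cells 16 of 10020 genes (0.16%) passed, all lower after exercise. In cycling cells 222 genes, 113 higher and 109 lower, had an unadjusted p under 0.05, and DESeq2 called 2 genes, Alb and Dusp1, both lower. With the Kupffer-rich members 1 of 2677 genes passed.

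Alb, which encodes serum albumin made by hepatocytes, was at 7.19 and 14.8 CPM in cycling Kupffer cells after exercise and at 252 and 130.3 CPM in the sedentary group. The log2 change was −3.82 (SE 0.485, edgeR adjusted p = 0.0122). In the Kupffer-rich members it was −3.79 (adjusted p = 0.00826, edgeR). Non-cycling Kupffer cells had 37.2 and 21.4 CPM after exercise and 380.1 and 179 CPM in the sedentary group, so the same difference was present outside the cycling cells. Mup7, a major urinary protein gene of hepatocytes with near-identical relatives among which reads can be split, was at 14.4 and 14.8 CPM after exercise and 104 and 92.5 CPM in the sedentary group (log2 change −2.65, SE 0.430, edgeR adjusted p = 0.0496). It did not pass with the Kupffer-rich members (0.2), without sedentary replicate 2 (0.116), without marked doublets (0.0815) or with at least 4 of 6 Kupffer genes (0.0698), all edgeR adjusted p, nor with DESeq2 (adjusted p = 0.448). Of 10 hepatocyte markers 4 could be tested in cycling cells, all 4 had a negative change (median −3.14), and Alb passed, and in non-cycling cells 8 of 10 passed as lower. Summed over the 10 markers, cycling cells had 68.3 and 86.8 CPM after exercise and 1027 and 408 CPM in the sedentary group, against 161 and 117 CPM and 1594 and 742 CPM in non-cycling cells of the same groups. A hepatocyte UMI was present in 39.5% and 19.5% of cycling cells after exercise and in 96.9% and 75.0% in the sedentary libraries. The part that free hepatocyte RNA has in these values was not tested here.

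Cd209a, a C-type lectin gene used among the markers of conventional dendritic cells, was at 126 and 74.1 CPM in cycling Kupffer cells after exercise and at 0 and 4.20 CPM in the sedentary group (log2 change 4.92, SE 0.796, edgeR adjusted p = 0.0496). These were 35 and 35 UMIs after exercise against 0 and 1 without it, in 9 cells. Of the 71 UMIs, 70 lay in 8 of the 24 Kupffer-poor members. With the Kupffer-rich members Cd209a was at 6.43 and 0 CPM after exercise and 0 and 0 CPM in the sedentary group and was too low to be tested. Non-cycling Kupffer cells had 5.43 and 11.1 CPM after exercise and 9.27 and 8.33 CPM in the sedentary group. DESeq2 did not call Cd209a (adjusted p = 0.448).

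The genes next in rank did not pass. Dusp1, a phosphatase that switches off stress kinases, was at 316 and 419 CPM after exercise and 757 and 1307 CPM in the sedentary group (log2 change −1.46, SE 0.280, edgeR adjusted p = 0.139). Non-cycling cells had 639.8 and 718 CPM after exercise and 934 and 1766 CPM in the sedentary group. DESeq2 called Dusp1 (adjusted p = 0.0356). So did edgeR with the replicate number as a block (adjusted p = 0.00123), without the filter on low counts (0.000119) and with at least 4 of 7 cell cycle genes (0.0288). It was not called in 9 of 15 alternatives. With 1 library left out its change ran from −1.79 to −0.94. The change was −0.78 without barcodes that held markers of other leukocytes or sinusoidal endothelium. The hepatocyte genes Apoa2 (−3.04, edgeR adjusted p = 0.0743) and Mup3 (−3.24, adjusted p = 0.324) had changes like that of Alb. With higher values after exercise, the endoplasmic reticulum chaperone complex gene Sdf2l1 was at 413 and 252 CPM after exercise and 139 and 151 CPM in the sedentary group, Rnase6 at 82.7 and 69.9 CPM in exercise and 8.70 and 25.2 CPM in sedentary cells, Ubfd1 at 64.7 and 48.7 CPM in exercise and 17.4 and 8.41 CPM in sedentary cells and Bri3bp at 64.7 and 46.6 CPM in exercise and 0 and 12.6 CPM in sedentary cells (edgeR adjusted p = 0.638 each). The log2 change of Sdf2l1 was above 1 with all members, but 0.65 with the Kupffer-rich members, and 1.56 without exercise replicate 2, where it passed (edgeR adjusted p = 0.0143). Rnase6 was at 6.43 and 5.81 CPM after exercise and 9.26 and 10.8 CPM in the sedentary group with the Kupffer-rich members, so its order there was the other way round.

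**Figure D5:**
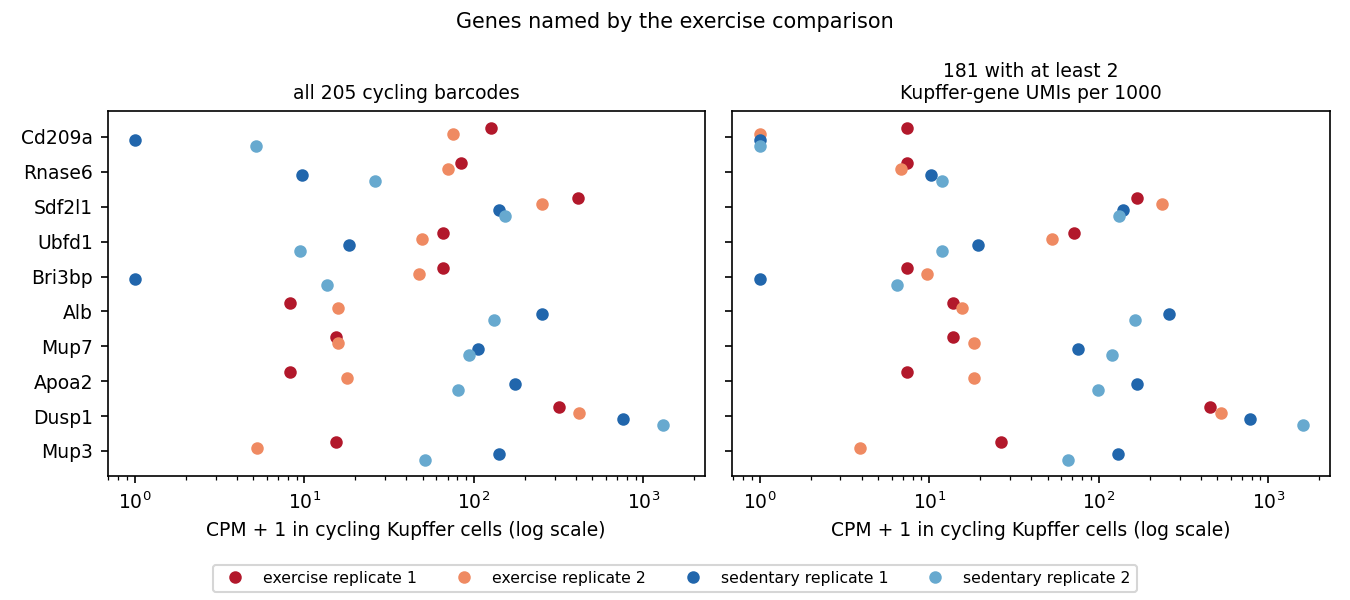
CPM + 1 on a log axis in cycling Kupffer cells for the 10 genes named by the exercise test, one point per library, exercise above sedentary; the panels show all 205 members and the 181 Kupffer-rich members. Alb and Dusp1 lie lower after exercise in both panels. Cd209a lies at 126 and 74.1 CPM after exercise and 0 and 4.20 CPM in the sedentary group in the left panel. In the right panel it lies at 6.43 and 0 CPM in exercise and 0 and 0 CPM in sedentary cells.

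The cell cycle genes gave no call in this comparison. Across the 7 rule genes the log2 change after exercise ran from −0.68 for Ccnb2 and −0.40 for Cdk1 to 0.21 for Top2a and 0.27 for Rrm2, and Stmn1 was at 0.11 (edgeR adjusted p from 0.84 to 0.999). None of 28 tested kinetochore and spindle genes (12 positive and 16 negative, median −0.04), 17 cyclins and kinases (11 and 6, 0.06), 9 licensing genes (7 and 2, 0.10) or 16 fork genes (14 and 2, 0.29) passed, beside a median of −0.007 over all 3759 genes. In the Kupffer-rich members all 10 tested fork genes were positive (median 0.26), but licensing genes were 4 positive and 4 negative (median −0.05). Nucleotide synthesis genes went from 6 positive and 1 negative (median 0.44) with all members to 2 and 4 (median −0.04). Kinetochore and spindle genes were there 12 and 11 (median 0.06), and cyclins and kinases 7 and 5 (median 0.04). The 10 genes of the nucleolus and ribosome making were all positive (median 0.43), and 7 of 8 were with the Kupffer-rich members (median 0.22).

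Genes of acute activation leaned the other way without a call. Of 17 immediate early and heat shock genes 15 had a negative change after exercise (median −0.47) and 5 had an unadjusted p under 0.05, and of 9 NF-kB targets and cytokines 8 were negative (median −0.75) and 3 had an unadjusted p under 0.05. Over all 3759 genes tested, 1907 were negative and 222 had an unadjusted p under 0.05 in edgeR. The immediate early transcription factor Fos was at 435 and 548 CPM after exercise and 818 and 1114 CPM in the sedentary group (−0.94, edgeR adjusted p = 0.638). The NF-kB inhibitor gene Nfkbia was at 323 and 351 CPM after exercise and 565 and 601 CPM in the sedentary group (−0.75, adjusted p = 0.791, edgeR). The cytokine gene Il1b was at 108 and 157 CPM in exercise and 287 and 210.1 CPM in sedentary cells (−0.79, adjusted p = 0.791, edgeR). None of these 3 genes passed. Neutrophils also express Il1b and many of these genes, and 6 neutrophil markers summed to 21.6 and 67.7 CPM in exercise and 122 and 96.7 CPM in sedentary cycling cells, against 65.7 and 170 CPM in exercise and 197 and 404 CPM in sedentary non-cycling cells. Their part in these values was not tested. Without barcodes that held markers of other leukocytes or sinusoidal endothelium the medians were −0.17 for immediate early and −0.24 for NF-kB genes. Without exercise replicate 1 the NF-kB median was −0.46, and without exercise replicate 2 the immediate early median was −0.76. With the Kupffer-rich members 14 of 15 immediate early genes (median −0.42) and 8 of 8 NF-kB targets (median −0.56) were negative, and in non-cycling Kupffer cells 19 of 21 (median −0.46) and 15 of 16 (median −0.78).

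For the Kupffer programme the members chosen mattered. Of 16 Kupffer identity genes all 16 were negative after exercise with all members (median −0.35), against 11 of 16 with the Kupffer-rich members (median −0.08). Of 7 MHC class II genes all 7 were positive with all members (median 0.50), against 1 of 7 with the Kupffer-rich members (median −0.37). The 24 Kupffer-poor members made up 44.1% and 27.2% of the summed UMIs after exercise and 6.08% and 22.5% in the sedentary libraries. Without exercise replicate 1 the identity median was −0.16, and without sedentary replicates 1 and 2 in turn the MHC class II median was 0.31 and 0.80. None of these genes passed in either set. Over all genes tested, 1907 of 3759 were negative with all members and 1332 of 2677 with the Kupffer-rich members.

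A test of the difference itself was made between cycling and non-cycling cells, with the library and the cell state in 1 edgeR fit over 8 sums. The exercise change differed for 4 of 9678 genes (0.0413%): Hba-a1, Hbb-bs, Tmsb10 and Cd209a, all with a more positive change in cycling cells. Tmsb10, which encodes an actin-binding thymosin, was at 3543 and 2318 CPM in cycling cells after exercise and 244 and 1883 CPM in the sedentary group, against 518 and 554 CPM after exercise and 276 and 538 CPM in the sedentary group in non-cycling cells (difference of changes 1.33, SE 0.238, edgeR adjusted p = 6.47e-05). With the Kupffer-rich members it was at 334 and 293 CPM after exercise and 129.7 and 401 CPM in the sedentary group, and the difference was 0.14 and did not pass. It was 0.66 without sedentary replicate 1 and 0.95 without exercise replicate 1, where it did not pass either, and 2.78 without sedentary replicate 2. The globin UMIs of cycling cells were 59 and 1 in the exercise libraries and 9 and 3 in the sedentary ones, and all 59 lay in 1 cell. Without exercise replicate 1 no gene passed the interaction test (265 of 10160 genes had an unadjusted p under 0.05, and no other tool was run on this fit).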

How the data were processed

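Single-cell gene expression was measured in 4 libraries of liver CD45+ cells. The deposited matrices hold counts of UMIs per gene and barcode. Per the submitters' processing notes, Cell Ranger and Seurat 3.1 were used (no version of the first is given in the sources used here), and per the labels' protocols reads were aligned to a pre-mRNA reference (mm10), so that intronic reads count. Deposited barcodes had at least 931 UMIs, and libraries summed to 10050976 to 14849778 UMIs.

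Members were chosen by the stated rule with Python 3.11.15 (numpy 2.4.6, pandas 2.3.3, scipy 1.17.1), and members and gene lists were chosen with earlier results of these data known. Counts were summed per library and state and tested with edgeR 4.0.16 (R 4.3.3; filterByExpr, TMM, quasi-likelihood F-test, adjusted p under 0.05), with DESeq2 1.42.0 as an alternative; the fits were checked on simulated data. Intervals are exact binomial (Clopper-Pearson), and permutation tests ran over libraries. Cycling and non-cycling cells were compared without a test, as log2(CPM + 10). Doublets were scored against simulated doublets (0.8% per 1000 barcodes) and kept. Named genes were the rule genes and Stmn1, up to 12 per direction by the exercise test or the state difference (at least 20 or 50 CPM), the 4 most abundant of each list and the 5 first of the interaction test; 1 gene under this rule is not reported here. Alternatives are given in the closing section.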

Additional observations from a re-analysis of the deposited data

Results flagged for a closer look

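These 4 results stand apart because the exercise change itself differed between cycling and non-cycling Kupffer cells of the same libraries, by edgeR's interaction test. Hba-a1, an alpha-globin gene, differed by 4.30 in log2 units (SE 0.675, edgeR adjusted p = 5.34e-06), with 89.8 and 2.12 CPM after exercise and 8.70 and 8.41 CPM in the sedentary group in cycling cells, against 28.8 and 102 CPM and 475 and 192 CPM in non-cycling cells of the same groups. The beta-globin gene Hbb-bs had a difference of 4.01 (SE 0.686, edgeR adjusted p = 6.47e-05), with 68.3 and 0 CPM after exercise and 34.8 and 0 CPM in the sedentary group in cycling cells. A single cell of exercise replicate 1 held 59 of the 72 globin UMIs of all members, and erythroid markers in non-cycling cells summed to 102 and 329 CPM after exercise and 1922 and 781 CPM in the sedentary group. Tmsb10 had a difference of 1.33 (SE 0.238, edgeR adjusted p = 6.47e-05), which was 0.14 with the 181 Kupffer-rich members. Cd209a had a difference of 5.15 (SE 0.979, edgeR adjusted p = 0.00035), and 70 of its 71 UMIs in members lay in Kupffer-poor members. With 1 library left out the differences ran from 0.66 to 2.78 for Tmsb10, with no call without exercise replicate 1 or sedentary replicate 1, and from 4.40 to 10.70 for Cd209a, with a call only without exercise replicate 2.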

How the results depend on the processing

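The cycling share of Kupffer barcodes kept its direction, higher after exercise, in 14 of 14 alternatives (0.253 to 1.66 points, both ends from leaving out 1 library). The synthesis share of phase UMIs was −0.69 to 9.83 points with 1 library left out, negative without exercise replicate 1, and 13.6 and 23.4 points without other markers and with no hepatocyte UMI. Genes called in cycling Kupffer cells (3) numbered 6 to 30 with 1 library left out, where the lone library is assumed to vary like the other group, 18 without the filter on low counts, 6 with at least 2 of 7 cell cycle genes, 1 without marked doublets, 5 without barcodes holding markers of other leukocytes or sinusoidal endothelium, 0 in barcodes with no hepatocyte UMI (27 of 1609 genes had an unadjusted p under 0.05 in edgeR) and 1 with the Kupffer-rich members. For non-cycling cells (16) the same settings gave 2 to 96, 198, 34, 32, 1 and 40, leaving out the cell cycle setting, which keeps their barcodes as they are. They also gave 64 with DESeq2, 42 with at least 4 of 6 Kupffer genes and 30 when fewer than 3 of 7 cell cycle genes defined non-cycling cells. Genes in the interaction test (4) numbered 0 to 9 with 1 library left out, 8 with at least 2 and 8 with at least 4 of 7 cell cycle genes, and 0 without other markers or hepatocyte UMIs (226 of 6590 and 184 of 4777 genes had an unadjusted p under 0.05). Genes at least 2-fold different between states (280) numbered 119 in barcodes with no hepatocyte UMI, where sedentary replicate 1 had 1 cycling cell. With the replicate number as a block, 8 genes were called in cycling and 86 in non-cycling cells. In cycling cells the deviations of equal numbers from their group means did not go together (correlation −0.06 over 3759 genes). For non-cycling cells this correlation was not computed. With 1 library left out the globin differences ran from −0.41 to 6.82 (Hba-a1), −5.49 to 10.89 (Hbb-bs) and −5.58 to 5.27 (Hba-a2), lowest and reversed without exercise replicate 1, and they also reversed with at least 2 of 7 cell cycle genes (−0.41, −1.04, −0.47). The MHC class II median between states reversed with at least 4 of 6 Kupffer genes (−0.34), without other markers (−0.40), with no hepatocyte UMI (−0.16) and with the Kupffer-rich members (−0.62), where its exercise median was −0.37. The exercise median of Kupffer identity genes was 0.23 with no hepatocyte UMI. Alb kept its direction and its call in the 13 alternatives in which it was tested. It was not tested in barcodes with no hepatocyte UMI, a setting that puts Alb itself at 0. Nor was it tested without barcodes holding markers of other leukocytes or sinusoidal endothelium. Where no construction is named, the cause was not tested. Depth limits what could be seen: sedentary replicate 1 gave 114947 UMIs from 32 cells, so genes of low level were not testable.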

Other observations

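Several transcripts followed the replicate number of the labels and not the treatment, in cycling and non-cycling Kupffer cells alike. These genes were chosen after their values had been seen. The histone gene Hist1h2ap was at 133 and 787 CPM in exercise and 130.5 and 803 CPM in sedentary cycling cells. The predicted gene Gm10076 was at 93.4 and 548 CPM in exercise and 122 and 639 CPM in sedentary cycling cells, against 104 and 462 CPM in exercise and 137 and 524 CPM in sedentary non-cycling cells. Gm10073 was at 93.4 and 326 CPM in exercise and 87.0 and 349 CPM in sedentary cycling cells. Gstp1, a glutathione transferase, was at 14.9 and 92.3 CPM in exercise and 22.4 and 80.3 CPM in sedentary non-cycling cells. AY036118 went the other way, with 183 and 38.1 CPM in exercise and 174 and 37.8 CPM in sedentary cycling cells, and so did Gm42418, with 392 and 152 CPM in exercise and 418 and 113 CPM in sedentary cycling cells. In each of these genes the values marked by the same number lay closer to each other than to those of their own group.

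Few T cell barcodes without a Kupffer-gene UMI met the same cell cycle criterion. Here T cell barcodes had a UMI of at least 2 of Cd3d, Cd3e and Cd3g and none of the 6 Kupffer genes or Cd79a, a narrower set than the one used for background levels. Of these 818 barcodes 4 had a UMI of at least 3 of the 7 cell cycle genes, 1 and 1 in the exercise libraries and 0 and 2 in the sedentary ones. The median depth of all 818 was 2925 and 2873.5 UMIs in the exercise libraries and 2401 and 2456.5 UMIs in the sedentary ones. The 4 cycling ones were deeper, with 4190 and 6153 UMIs in exercise replicates 1 and 2 and a median of 7812 in sedentary replicate 2. In the wider set, T cell barcodes had medians of 0.311 to 0.391 Kupffer-gene UMIs per 1000 UMIs. Asking for none of them therefore leaves out deep barcodes more often, cycling ones among them. The 4 of 818 are thus not the cycling share of T cells.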
